A study of Mus musculus with 26 samples.

Results

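Unstressed microglia of the nucleus accumbens (NAc) were compared between TLR-DKO and wild-type (WT) mice. The arrays were chosen by their titles, which gave 3 TLR-DKO and 3 WT arrays, 6 of the 26 arrays in the series. Both genotypes were on a C57BL/6 background and carried 1 EGFP allele of the fractalkine receptor gene (CX3CR1EGFP/+), so neither was free of that change. The TLR-DKO mice had the genotype TLR-DKO; CX3CR1EGFP/+. The labels do not spell out TLR-DKO, but the published study describes mice that lack both Tlr2 and Tlr4. All 6 pools were naive, meaning that the mice had been moved between cages in place of repeated social defeat stress (R-SDS), and brains were taken 1.5 h after the last session. EGFP-positive cells were sorted from 1.5 mm punches, and cells of 3 to 6 mice were pooled for each array to reach 500 pg of RNA, which was amplified before labelling. The series as a whole crosses genotype, stress and 2 brain areas, the NAc and the medial prefrontal cortex (mPFC), in 2 independent experiments with different mice. Age and sex are not given in the labels used here.

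Toll-like receptors sit on the surface or in the endosomes of microglia and bind molecules released by microbes and damaged cells. Tlr2 pairs with Tlr1 or Tlr6, and Tlr4 works with the co-receptors Ly96 (MD-2) and Cd14. They signal through the adaptors Myd88 and Ticam1 (TRIF) to NF-kappaB and to interferon regulatory factors, and cytokines, chemokines and type I interferon are the classical output. Microglia are the resident macrophages of the brain and use these receptors for the early response to injury and stress.

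All levels are log2 of the array signal minus the 75th percentile of that array, so that 0 is the brightness of a fairly bright probe and a step of 1 is a doubling. The arrays' 75th percentile was 153 to 223 signal units in TLR-DKO and 156 to 259 in WT. The share of spots well above background was 49.97 to 58.9% in TLR-DKO, with a median of 57.8%, and 54.9 to 62.9% in WT, with a median of 60.7%. Across genes, Pearson r was 0.846 to 0.896 for the 6 pairs of arrays within a genotype and 0.851 to 0.935 for the 9 pairs between genotypes. The pair with the highest r joined TLR-DKO replicate 2 and WT replicate 3. Across all genes the arrays did not group by genotype. The median SD within the 2 groups was 0.663 (log2). Replicate 1 of each genotype lay on 1 slide and replicates 2 and 3 on another, and each slide was scanned on its own day. On the first principal component, the axis of largest variation between arrays, replicate 1 stood at -66.65 in TLR-DKO and -45.47 in WT. Replicates 2 and 3 stood at 70.45 and 48.41 in TLR-DKO and at 29.32 and 58.8 in WT. On this axis the arrays parted by slide and scan day and not by genotype. The main fit has no term for slide or scan day, and both served as blocks in alternatives.

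Tlr2, a targeted gene, was examined first. It stood at -4.24, -4.11 and -3.46 in TLR-DKO and at 1.58, 2.12 and 1.98 in WT. No TLR-DKO array read it well above background, every WT array did, and the groups lay far apart. The fitted difference was -5.83 ± 0.41 (log2, SE), and the gene was at least 43.2-fold lower in TLR-DKO (limma adjusted p = 9.06e-08). Such a bound sets the WT mean against the dimmest signal that counted as well above background on the TLR-DKO arrays, and it holds no sampling error. Within slides the difference was -5.82 on the slide with replicate 1 and -5.84 on the slide with replicates 2 and 3. The Tlr2 promoter of RefSeq (GRCm38.p6, chr3:83841559-83841858, minus strand) is shown because Tlr2 was the clearest difference, with capitals on GGGAA, a recognition element of NF-kappaB, followed directly by its reverse complement TTCCC.

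Tlr2: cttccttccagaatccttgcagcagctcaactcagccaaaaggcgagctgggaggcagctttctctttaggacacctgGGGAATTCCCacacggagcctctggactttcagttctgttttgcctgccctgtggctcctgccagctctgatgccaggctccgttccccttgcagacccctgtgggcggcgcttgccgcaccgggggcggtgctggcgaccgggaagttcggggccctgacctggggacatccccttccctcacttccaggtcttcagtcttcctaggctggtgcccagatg

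The match begins 172 bases before the start and reads the same on both strands. It was picked after the sequence was seen, and 13 of 32851 mouse promoters of this length in the table (0.0396%) hold that pair. A match is a description of the sequence and not a test of binding.

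Tlr4, the receptor for bacterial lipopolysaccharide and the other targeted gene, stood at 1.47, 2.88 and 2.88 in TLR-DKO and at 3.07, 2.80 and 2.12 in WT. The groups overlapped and the fitted difference was -0.26 ± 0.54 (limma adjusted p = 1.00). Where the probe lies relative to the deleted part was not given in the sources used here, so its signal checks nothing about the label. Cx3cr1, whose promoter drives the EGFP used for sorting, stood at 8.33, 8.73 and 8.81 in TLR-DKO and at 8.37, 8.74 and 8.15 in WT, with overlapping groups and a difference of 0.20 ± 0.34 (limma adjusted p = 1.00).

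**Figure D1:**
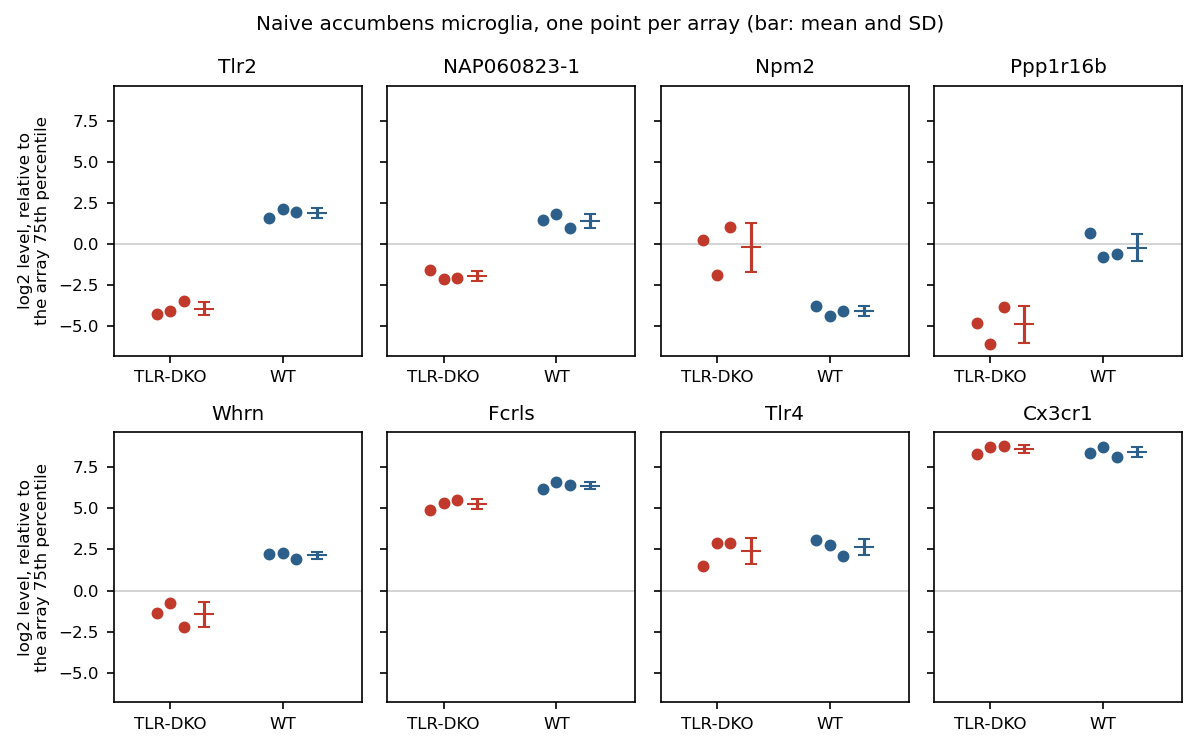
Level of 8 genes on each naive NAc array (log2 signal minus its array's 75th percentile). TLR-DKO arrays are in red on the left and WT arrays in blue on the right of each panel, and bars give mean and SD (n = 3 each). Tlr2, NAP060823-1, Ppp1r16b and Whrn lie lower and Npm2 higher in TLR-DKO with wide gaps, Fcrls lies lower by a narrower gap, and the groups overlap for Tlr4 and Cx3cr1.

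Across 24735 genes tested, 3 passed the threshold (limma, adjusted p under 0.05, 0.0121% of genes). Tlr2 and a probe named NAP060823-1 fell (0.00809%), and Npm2 rose (0.00404%). At an unadjusted p under 0.05 there were 815 genes (3.29%). The arrays of the genotypes did not overlap for 1826 genes (7.38%), of which 871 were higher (3.52%) and 955 lower (3.86%) in TLR-DKO. A difference above 0 was seen for 11199 genes (45.3%), and the median over all genes was -0.06.

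NAP060823-1 is a name from the array's design that the reference tables do not annotate, so no gene or role is given to it. It stood at -1.57, -2.15 and -2.09 in TLR-DKO and at 1.49, 1.82 and 0.97 in WT. All 6 arrays read it well above background, and every TLR-DKO array was below every WT array. The difference was -3.36 ± 0.41 (limma adjusted p = 7.74e-04), which is 10.3-fold. It was -3.06 and -3.51 within the 2 slides.

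Npm2 encodes nucleoplasmin 2, a histone chaperone known for remodelling chromatin in the egg. It stood at 0.22, -1.86 and 1.06 in TLR-DKO and at -3.79, -4.39 and -4.08 in WT. All 3 TLR-DKO arrays read it well above background and no WT array did, but the TLR-DKO arrays spread widely, with replicate 2 well below the others. The difference was 3.89 ± 0.54 and the gene was at least 10.8-fold higher in TLR-DKO (limma adjusted p = 0.00358). Within slides it was 4.00 and 3.83. The call rested on single arrays, since the adjusted p was 0.0547 without TLR-DKO replicate 1 and 0.0501 without WT replicate 2, and it was 0.385 when only the 13 NAc arrays were fitted.

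The genotypes were also compared on 20 other arrays of the series, which share no array with the naive NAc comparison. After R-SDS the titles mark the WT arrays as R-SDS(sus) and the TLR-DKO arrays as R-SDS alone. The R-SDS comparisons, and any mean that holds them, therefore differ in that label as well as in genotype. Tlr2 differed by -5.67 ± 0.38 in naive mPFC, -5.61 ± 0.38 in R-SDS NAc and -5.82 ± 0.41 in R-SDS mPFC. NAP060823-1 differed by -3.28, -3.40 and -3.74 in the same order, so both genes fell wherever the genotypes were compared (limma adjusted p of 3.90e-04 or less). In naive mPFC 3 genes passed (0.0121%), these 2 and Lemd3, an inner nuclear membrane protein gene that passed in only 4 of 20 alternatives (limma adjusted p of up to 0.347). In R-SDS NAc these 2 alone passed (0.00809%), and in R-SDS mPFC 3 genes did (0.0121%), these 2 and Msantd3, which was not examined further. Lemd3 and Msantd3 are named after their values were seen. Npm2 differed by -0.07 ± 0.50, -0.23 ± 0.50 and -0.28 ± 0.54, with limma adjusted p of 0.906 or more.

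Whether the naive NAc difference was larger than elsewhere was tested directly. The genotype difference in naive NAc was set against that in naive mPFC, and 0 genes passed (limma, 889 at an unadjusted p under 0.05, 3.59%). Against the difference in NAc after R-SDS, 0 genes passed (limma, 623 at an unadjusted p under 0.05, 2.52%). Npm2 differed by 3.96 and 4.12 in these tests without passing (limma adjusted p of 0.484 and 0.387). In a comparison added after these values were seen, naive NAc was set against the mean of the other 3 genotype differences. There 1 gene passed (0.00404%), and it was Npm2 with 4.08 ± 0.61 (limma adjusted p = 0.0372). Without TLR-DKO replicate 1, TLR-DKO replicate 3 or any of the 3 WT replicates it no longer passed (limma adjusted p of 0.123 to 0.320), and without TLR-DKO replicate 2 it did (1.29e-04). It passed in 7 of 19 alternatives, and not with slide, scan day or replicate number as a block (limma adjusted p of 0.0541, 0.0600 and 0.430).

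**Figure D2:**
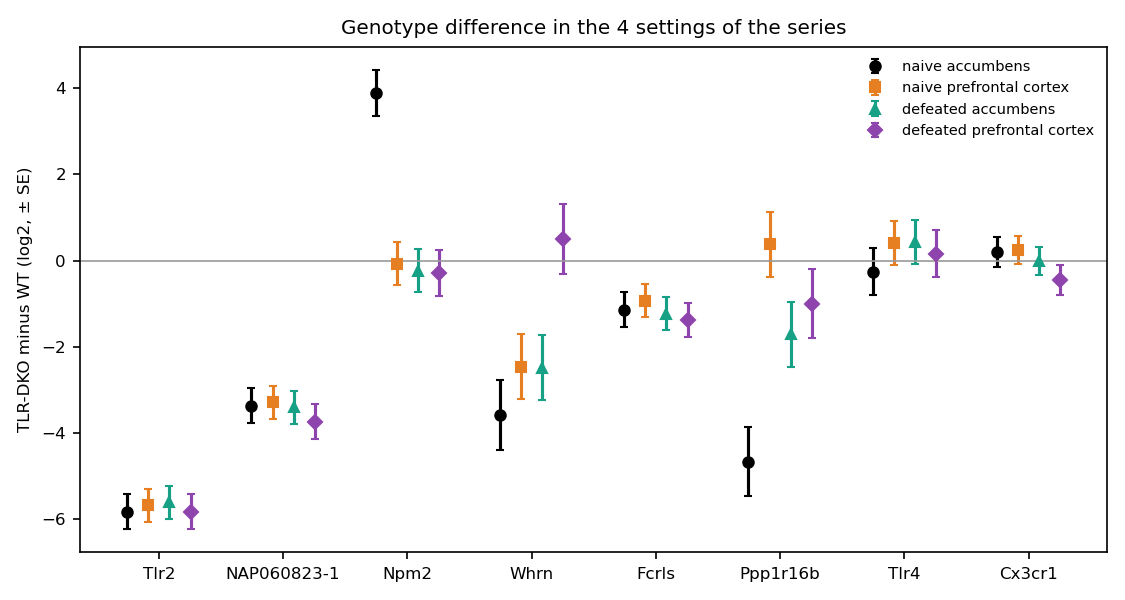
TLR-DKO minus WT for 8 genes (log2, with SE as bars) in naive accumbens, naive prefrontal cortex, defeated accumbens and defeated prefrontal cortex, in that order from left to right within each gene. Tlr2 and NAP060823-1 are far below 0 in all 4 settings, Fcrls is below 0 in all 4, and Npm2 is above 0 in naive accumbens alone and near 0 in the other 3.

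Beyond the genes that passed, the 15 genes of smallest p in each direction were listed among those with a RefSeq name, well above background on all arrays of at least 1 genotype and without overlap between genotypes. Their arrays were separated because the choice required it, so the list is a description. Apart from Tlr2 and Npm2, none of the 29 given here passed (limma adjusted p of 0.0621 or more). The smallest of those belonged to Ppp1r16b, a regulatory subunit of protein phosphatase 1. It stood at -4.80, -6.07 and -3.82 in TLR-DKO, none well above background, and at 0.70, -0.79 and -0.60 in WT, all well above it. The fitted difference was -4.66 ± 0.80, with a bound of at least 9.90-fold lower. In naive mPFC it differed by 0.38, in R-SDS NAc by -1.71 and in R-SDS mPFC by -0.99.

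On the higher side, Cnpy2, an endoplasmic reticulum protein, stood at 3.17, 3.31 and 3.32 in TLR-DKO and at 1.54, 0.10 and 1.60 in WT, a difference of 2.19 ± 0.44. Its 3 TLR-DKO arrays nearly coincided. Src, a tyrosine kinase that acts downstream of integrins and immune receptors, stood at 0.63, 1.76 and 2.13 in TLR-DKO and at -1.79, -1.19 and -1.56 in WT, a difference of 3.02 ± 0.84. Phf5a, a part of the SF3b splicing complex, differed by 2.39 ± 0.60, the ribosome assembly factor Rrp12 by 2.92 ± 0.81, and Xxylt1, which adds xylose to Notch receptors, by 3.21 ± 0.85. Fhl3, a LIM-domain protein, differed by 1.74 ± 0.48, and its other probe by 1.22. Chic2 (2.03 ± 0.46) and Cwf19l1 (2.45 ± 0.62) were well above background on all 6 arrays. Tmem63c (2.35 ± 0.54) and 6330407A03Rik (4.03 ± 0.95), like Rrp12 and Xxylt1, were read by all TLR-DKO arrays and by 1 WT array. No WT array read Anxa9, the odorant receptor Olfr801 or the hair protein gene Krtap16-1, with bounds of at least 7.60-fold, 1.72-fold and 1.42-fold higher. Elsewhere the 13 genes went both ways. In R-SDS NAc, 12 of the 13 differences were above 0, from -0.06 to 2.44, with Src at 2.44 ± 0.79, Chic2 at 1.60 ± 0.43 and Rrp12 at 1.51 ± 0.75 (limma adjusted p of 0.997 or more). In naive mPFC 9 were above 0, from -1.49 for Src to 1.29 for Anxa9, and in R-SDS mPFC 5 were, from -1.59 for Rrp12 to 0.39 for Fhl3. The median over all genes was -0.11 in R-SDS NAc, -0.003 in naive mPFC and -0.24 in R-SDS mPFC. Such counts were not made for the lower genes.

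On the lower side, Ifnb1, the gene of interferon beta and a classical product of Tlr4 signalling through TRIF, stood at -4.21, -5.81 and -5.19 in TLR-DKO and at -2.06, -0.23 and 0.22 in WT. No TLR-DKO array read it above background and all WT arrays did. The difference was -4.38 ± 1.21, a bound of at least 7.21-fold, which did not pass (limma adjusted p = 0.973). It differed by -1.25 in naive mPFC, 1.65 in R-SDS NAc and -0.32 in R-SDS mPFC. Adm, the gene of the vasoactive peptide adrenomedullin, was at -5.04, -3.85 and -3.96 in TLR-DKO and at -1.23, 1.83 and 0.18 in WT, a bound of at least 13.9-fold lower that did not pass (limma adjusted p = 1.00). Gpam, which starts glycerolipid synthesis in mitochondria, was at -5.15, -2.38 and -5.07 in TLR-DKO and at 1.56, 2.49 and -0.12 in WT. Cdc73, a subunit of the Paf1 transcription complex, differed by -4.11 ± 1.01 and had a bound of at least 7.18-fold, while it differed by 3.15 in R-SDS mPFC. Sdhaf2, an assembly factor of succinate dehydrogenase, had a bound of at least 4.32-fold. Dtd2, which clears misacylated tRNA, differed by -3.43 ± 0.92, and its other probes by -4.37 to -1.23. Glmn differed by -2.35 ± 0.63, but its other probe by -0.26. Lce3b, Gm13375, A930019D19Rik, Zfp112 and Tceal6 differed by -3.79 to -2.44.

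**Figure D3:**
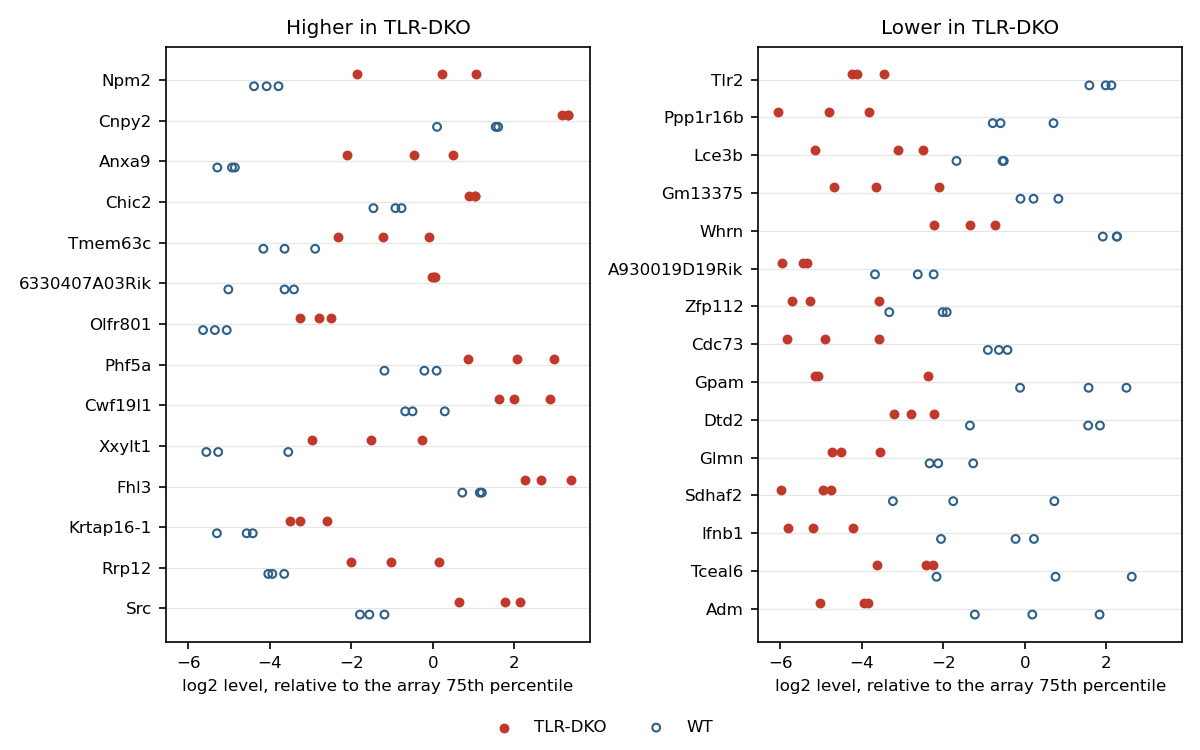
Level of 14 genes higher and 15 genes lower in TLR-DKO, from those of smallest p, on each naive NAc array (log2 signal minus its array's 75th percentile), with TLR-DKO as filled red points above and WT as open blue points below on each line. Separation of the groups was a condition of the choice. The widest gap is that of Tlr2, and the WT points of Anxa9 and the TLR-DKO points of Adm are not well above background.

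Whrn, on the same list, encodes whirlin, a scaffold protein known from the hair bundles of the inner ear. It stood at -1.34, -0.73 and -2.24 in TLR-DKO and at 2.25, 2.26 and 1.91 in WT, with all 6 arrays above background. The WT arrays nearly coincided and the groups lay far apart, with a difference of -3.58 ± 0.81 (limma adjusted p = 0.563), of -3.59 and -3.57 within the slides and of -2.53 by its other probe. It differed by -2.46 in naive mPFC and -2.49 in R-SDS NAc, and by 0.50 in R-SDS mPFC. The mean of the other 3 was -1.48 (limma adjusted p = 0.429). In RefSeq gene order Whrn lies 26 genes before Tlr4 on chromosome 4.

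Fcrls, an Fc receptor-like gene used as a marker of homeostatic microglia, stood at 4.93, 5.35 and 5.50 in TLR-DKO and at 6.20, 6.59 and 6.40 in WT. The groups did not overlap, and the difference was -1.14 ± 0.40 (limma adjusted p = 1.00), with -1.27 and -1.07 within the slides. It differed by -0.93 ± 0.38 in naive mPFC, -1.23 ± 0.38 in R-SDS NAc and -1.37 ± 0.40 in R-SDS mPFC, with a mean of -1.18 over these 20 arrays that did not pass (limma adjusted p = 0.116). Fcrls lies 68 genes after Tlr2 on chromosome 3. Its relative Fcrl1, named here after its values were seen, lies 72 genes after Tlr2. It was read by no TLR-DKO array and by 2 of the 3 WT arrays, differed by -3.25 ± 0.97 in naive NAc (limma adjusted p = 1.00), and fell over the other 20 arrays by 3.22 (limma adjusted p = 0.0413). That call held in 9 of 18 alternatives, with an adjusted p of up to 0.409 (limma), and it was lost without TLR-DKO replicate 1, TLR-DKO replicate 3, WT replicate 1 or WT replicate 3 of naive NAc, which enter only through the pooled spread (0.0550 to 0.0692). In that mean of the other 3 genotype differences, 4 genes passed (0.0162%), which were Tlr2, NAP060823-1, Fcrl1 and a probe with no gene symbol that rose by 1.69.

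The promoter of Fcrls is set beside that of Tlr2 because both genes lie on chromosome 3 and had fitted differences below 0 in every setting (RefSeq, GRCm38.p6, chr3:87263475-87263774, minus strand). Capitals mark GAGGAA, the purine-rich core bound by the microglial factor PU.1 and other ETS proteins.

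Fcrls: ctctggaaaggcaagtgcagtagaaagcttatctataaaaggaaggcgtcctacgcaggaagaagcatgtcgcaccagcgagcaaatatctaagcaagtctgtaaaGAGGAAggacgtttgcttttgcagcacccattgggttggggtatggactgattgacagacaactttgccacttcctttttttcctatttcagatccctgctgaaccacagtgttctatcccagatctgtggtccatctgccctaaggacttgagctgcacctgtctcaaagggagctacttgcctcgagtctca

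It holds that core 144 bases before its start, searched on both strands, and the Tlr2 promoter does not. The core is common, with 9289 of 32851 promoters (28.3%) holding it. The Fcrls promoter has no such pair of GGGAA and TTCCC in this window, which says nothing about binding.

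Genes next to the targets were counted separately. Of the 20 genes on either side of Tlr2, 8 of 40 were measured, 4 above and 4 below 0, with a median of 0.00. Around Tlr4, 6 of 40 were measured, 1 above and 5 below 0, with a median of -0.35. None of these passed (limma adjusted p of 1.00).

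Gene lists were then read beside the whole array. Each list is given by how many members were measured, how many were above 0 and its median, against 45.3% above 0 and a median of -0.06 over all genes. Counts of members without overlap stand against 3.52% higher and 3.86% lower over all genes, 7.38% together. Apart from Tlr2, 0 members of any list passed the threshold (limma adjusted p of 1.00 for each).

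Toll-like receptors and co-receptors had 19 of 21 members measured, 14 of them above 0, and a median of 0.38. Ly96, the lipopolysaccharide-binding partner of Tlr4, stood at 3.82, 2.89 and 3.82 in TLR-DKO and at 1.69, 0.46 and 3.43 in WT, a difference of 1.65 ± 0.77 with overlapping groups. Cd36, a scavenger receptor that assists Tlr2 and Tlr4, stood at 0.56, -2.23 and -2.17 in TLR-DKO and at -4.63, -3.16 and -5.90 in WT. Only 1 WT array read Cd36 above background, and the difference was 3.29 ± 1.03. Unc93b1, which brings endosomal receptors to their compartment, stood at 5.47, 5.10 and 4.89 in TLR-DKO and at 4.46, 4.70 and 4.71 in WT, a difference of 0.53 ± 0.32. The 4 of 19 members higher without overlap, against 3.52% of all genes, were Cd36, Unc93b1, Cd14 and Ly86, of which the last 2 are named after their values were seen, with differences of 0.66 and 0.38. Over the other 20 arrays Cd36 and Ly96 were on the other side of 0, with -1.03 and -0.50, and the list median was -0.04.

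Adaptors and kinases of the pathway had 26 of 29 measured, 18 above 0, and a median of 0.20. That median was -0.08 on the slide with replicate 1 and 0.45 on the other. Tollip, an inhibitor of the receptor complex, stood at 1.43, 2.34 and 2.52 in TLR-DKO and at 3.36, 2.37 and 2.91 in WT (-0.79 ± 0.48). Traf3, a ubiquitin ligase on the route to interferon, differed by 1.53 ± 1.00 with overlapping groups, since replicate 1 of each genotype lay below its mates. NF-kappaB subunits, targets and feedback genes had 26 of 28 measured, 15 above 0, a median of 0.08, and 0 members without overlap, against 7.38% of all genes. The subunit Rel stood at -1.41, -1.41 and -2.58 in TLR-DKO and at -0.83, -1.50 and -0.08 in WT, and the groups overlapped.

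Cytokines and chemokines, the output of the pathway, had 25 of 29 measured, 11 above 0, and a median of -0.16. That median was -0.56 on the slide with replicate 1 and 0.21 on the other, and -0.28 to 0.21 when single arrays were left out, so it had no settled sign. Ccl9, a macrophage chemokine, stood at 5.45, 5.06 and 5.13 in TLR-DKO and at 4.68, 4.28 and 3.65 in WT, higher without overlap by 1.01 ± 0.44. Ccl3 was at 4.00, 4.00 and 4.08 in TLR-DKO and at 2.58, 3.20 and 3.92 in WT, a difference of 0.79 ± 0.47. Il18, a product of the inflammasome, differed by 1.49 ± 0.81, and the chemokine Cxcl16 by -1.01 ± 0.61, both with overlapping groups. The type I interferon response had 31 of 39 measured, 14 above 0, and a median of -0.08, close to that of all genes. Antigen presentation had 14 of 25 above 0 with a median of 0.09, and Ciita, its master regulator for class II genes, differed by -0.72 ± 0.36. The median of antigen presentation was -0.10 on the slide with replicate 1 and 0.16 on the other.

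Homeostatic microglial genes, which also check the cell type, had 35 of 35 members measured, 26 above 0, and a median of 0.10. The list median was -0.03 on the slide with replicate 1 and 0.20 on the other. Its members went both ways, with 9 below 0 and a range of -2.56 to 0.81. Without overlap 5 were higher and 3 lower, with Fcrls among the lower, against 3.52% and 3.86% of all genes. Tmem119 and P2ry13, defining markers, were above background on all 6 arrays and differed by 0.30 each. In each genotype 34 members were well above background on all 3 arrays, so both genotypes carried the labelled cell type. Genes of disease-associated microglia had 29 of 32 measured, 19 above 0, and a median of 0.15. Lgals3bp, a secreted glycoprotein, stood at 3.37, 3.23 and 4.52 in TLR-DKO and at 2.08, 2.78 and 3.18 in WT (1.03 ± 0.46). The growth factor Igf1 differed by -0.88 ± 0.55, and its other probes by -3.41 to -2.87.

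Glucocorticoid receptor targets, which respond to corticosterone, had 25 of 28 measured, 18 above 0, and a median of 0.25. At an unadjusted p under 0.05 there were 3 of 25, against 3.29% of all genes, and 5 were higher and 1 lower without overlap, against 3.52% and 3.86%. Ddit4, an inhibitor of mTORC1, stood at 5.78, 5.54 and 6.07 in TLR-DKO and at 4.63, 3.51 and 4.09 in WT, a difference of 1.72 ± 0.62. Tsc22d3, the gene of GILZ, a glucocorticoid-induced leucine zipper protein that dampens inflammation, stood at 5.20, 4.89 and 4.90 in TLR-DKO and at 4.01, 4.29 and 3.65 in WT, a difference of 1.01 ± 0.46. All TLR-DKO arrays lay above all WT arrays for both genes. The metal-binding protein gene Mt1 was at 4.16, 3.98 and 3.22 in TLR-DKO and at 1.13, 2.62 and 3.21 in WT, a difference of 1.47 ± 0.55, which was 3.03 on the slide with replicate 1 and 0.68 on the other, and its other probe differed by -0.60. Cebpd, a transcription factor of inflammation, differed by 1.46 ± 0.75 with overlapping groups. Sult1a1 and Fkbp5, named after their values were seen, were the others higher without overlap, by 0.92 and 0.64. The list median was 0.28 and 0.35 within the slides, and it was -0.00 over the other 20 arrays.

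**Figure D4:**
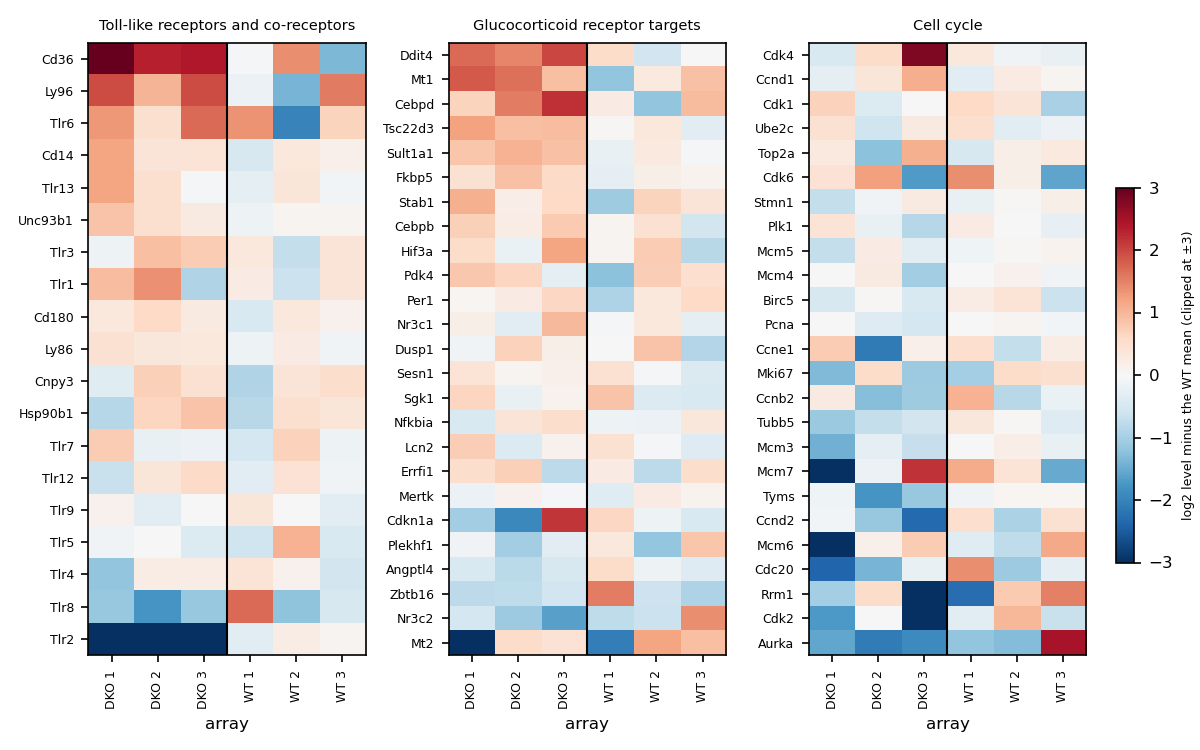
Level minus the WT mean (log2, colour clipped at 3 either way) for measured members of 3 lists on each naive NAc array, with the TLR-DKO arrays left of the line and the WT arrays right of it. Tlr2 is dark blue on the 3 TLR-DKO arrays, Ddit4, Mt1 and Tsc22d3 are red on all 3, and 20 of 25 cell cycle genes average below 0 in TLR-DKO, with wide differences between arrays of a genotype.

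Cell cycle genes had 25 of 33 measured, 5 above 0 and 20 below, and a median of -0.40, the lowest of the 33 lists of pathways and markers. Tyms, which makes thymidylate for DNA synthesis, stood at -0.22, -1.85 and -1.21 in TLR-DKO and at -0.19, -0.02 and -0.03 in WT, a difference of -1.01 ± 0.43. Its replicate 1 pair differed by only -0.03, so the separation came from the other slide, where it was -1.50. Tubb5, a tubulin, stood at 3.88, 4.29 and 4.44 in TLR-DKO and at 5.34, 5.04 and 4.61 in WT (-0.79 ± 0.51). Aurka and Mcm3 were among the 4 of 25 members lower without overlap, against 3.86% of all genes, and Mcm3 is named after its values were seen. The list median was -0.49 and -0.40 within the slides and 0.00 over the other 20 arrays. Summed levels of the list overlapped, at 48.3 to 97.7 in TLR-DKO and 77.7 to 89.9 in WT. Of its members, 18 were well above background on all TLR-DKO arrays and 24 on all WT arrays. Detection leaned the same way over all genes, with 1927 read on all WT arrays and 2 TLR-DKO arrays and 838 the reverse. Clock genes had 18 of 23 measured, 7 above 0, a median of -0.25 and a range of -2.43 to 2.20. Without overlap 1 was higher and 3 were lower, against 3.52% and 3.86% of all genes. The clock median was also below 0 elsewhere, at -0.38 in naive mPFC, -0.18 in R-SDS NAc and -0.16 in R-SDS mPFC. Ciart, a repressor in the clock, was read by no TLR-DKO array and by all WT arrays, with a bound of at least 3.98-fold lower and a difference of -2.43 ± 0.98. Nr1d1, another clock repressor, stood at -1.33, -1.33 and -0.63 in TLR-DKO and at 0.05, 0.15 and -0.50 in WT, lower without overlap. The time of day of each sort was not given in the sources used here.

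Among lists of basic metabolism, most genes of oxidative phosphorylation and of the ribosome were above 0, with medians not far from 0. Oxidative phosphorylation had 38 of 38 measured, 27 above 0, and a median of 0.17, with Sdha, a subunit of succinate dehydrogenase, at 1.15 ± 0.57. Cytosolic ribosomal proteins had 44 of 46 measured, 32 above 0, a median of 0.11 and the narrow range of -0.37 to 0.67. Glycolysis and hypoxia genes had 17 of 26 above 0, a median of 0.13 and a range of -4.54 to 2.34, with Ldha at 1.04 ± 0.56. Without overlap 0 of them were higher and 2 lower, against 3.52% and 3.86% of all genes. Their median was -0.001 after quantile normalization. Kinases and phosphatases of the MAP kinase pathway had a median of 0.17, with Map2k1 (MEK1) at 1.12 ± 0.53. Inflammasome and cell death genes had a median of -0.20, with Casp8, a caspase of extrinsic apoptosis, at 0.87 ± 0.38. Immediate early and heat shock genes had 17 of 32 above 0 and a median of 0.12, complement and phagocytosis 23 of 38 and 0.14, lysosomal and lipid handling 25 of 40 and 0.08. NADPH oxidase and antioxidant genes had 15 of 24 above 0 and a median of 0.16, cytokine receptors and SOCS genes 14 of 25 and 0.05, TGF-beta signalling 8 of 20 and -0.09, and microglial purinergic and transmitter receptors 12 of 20 and 0.08. Some of these medians changed sign between the slide with replicate 1 and the other slide. In that order they were -0.15 and 0.15 for inflammasome and cell death genes, and -0.32 and 0.36 for immediate early and heat shock genes. They were -0.48 and 0.30 for cytokine receptors and SOCS genes, -0.01 and 0.17 for lysosomal and lipid handling, and -0.04 and 0.02 for TGF-beta signalling.

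**Figure D5:**
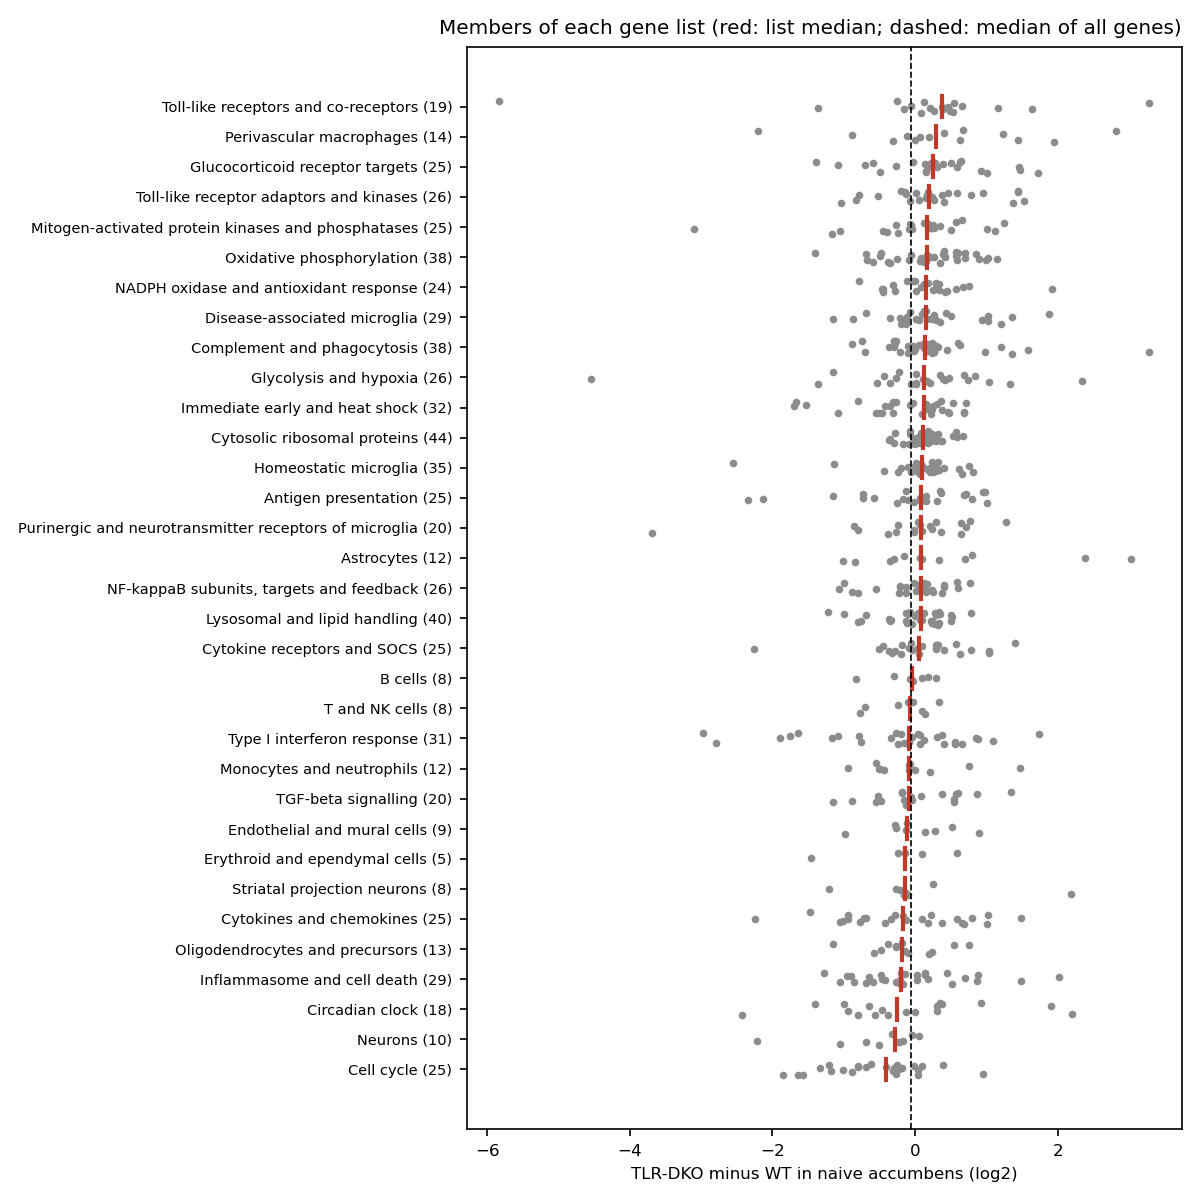
Genotype difference in naive NAc (TLR-DKO minus WT, log2) of each measured member of 33 lists, with the number measured in brackets, the list median in red and the median of all genes as a dashed line. Lists are ordered by median, from 0.38 for Toll-like receptors and co-receptors to -0.40 for cell cycle genes, and members spread more widely than the medians.

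Markers of other cells that the punch or the sort could hold were read in the same way. The summed level of 12 measured astrocyte markers was 20.5 to 24.4 in TLR-DKO and 13.6 to 15.9 in WT, without overlap, while 7 of the 12 were above 0 and their median was 0.08. Slc1a3, a glutamate transporter, stood at 3.94, 3.44 and 3.52 in TLR-DKO and at 3.17, 2.61 and 2.71 in WT. Sums are of linear levels, so this bright marker weighs most in them, and the gap in the sum is largely its own. Clu, also an astrocyte marker here, differed by 3.02, the highest of the 12, while 5 astrocyte markers were below 0, down to -1.01. A part of these cells in the results above was not tested, and fewer cells of a type cannot be told apart from less RNA per cell. Neuron markers had 10 of 18 measured, 1 above 0, and a median of -0.28, with summed levels of 53.5 to 65.0 in TLR-DKO and 51.5 to 83.9 in WT. The other sets overlapped in summed level, among them oligodendrocyte (54.6 to 113.8 in TLR-DKO and 39.1 to 81.4 in WT), perivascular macrophage (30.0 to 44.7 and 33.8 to 52.2 in the same order) and endothelial markers (13.5 to 22.7 and 14.4 to 19.4). Medians were -0.14 for striatal neurons, -0.18 for oligodendrocytes, -0.11 for endothelial and mural cells, -0.08 for monocytes and neutrophils, -0.05 for B cells and -0.14 for erythroid and ependymal cells. Of these, the medians for striatal neurons, endothelial and mural cells, B cells, and erythroid and ependymal cells changed sign between the slides. The median of perivascular macrophage markers was 0.30, but it was -0.12 and 0.02 within the slides and -0.26 to 0.94 when single arrays were left out. T and NK cell markers had 8 of 17 measured, 3 above 0, a median of -0.07 and a range of -0.77 to 0.34, with Cd3e at -0.71 ± 0.31 and Lck at -0.77 ± 0.39.

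Detection gave a further view that needs no fold. Of the tested genes, 17278 were well above background on all 6 arrays. There were 24 genes read on all TLR-DKO arrays and on no WT array, among them Npm2 and Anxa9. In the other direction 110 genes were read on all WT arrays and on no TLR-DKO array, among them Tlr2, Ppp1r16b, Ifnb1 and Adm. The share of spots above background, given earlier, had a lower median in TLR-DKO, but the genotypes overlapped and on the slide with replicate 1 it was higher in TLR-DKO (57.8%) than in WT (54.9%). Its part in the imbalance was not tested.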

How the data were processed

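Gene expression was measured on 1-colour Agilent mouse arrays. The deposited scanner files hold linear spot intensity as Agilent Feature Extraction, version 11.0.1.1 by the file headers and the submitters' processing notes, wrote it, with background already subtracted in the processed signal. The deposited matrix holds log2 values of the same arrays whose scale and centring are not stated. Against the scanner values of the same array it had r = 1.0 across probes, the same direction and column medians of -2.87 to -2.64 for the 6 arrays, and it served as an alternative.

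Here, each array's 75th percentile was subtracted from the log2 processed signal, without control spots and outlier flags (0 spots were saturated), and spots of a probe were averaged. Probes were named through RefSeq (GRCm38.p6), which matched 27980 of 29744 RefSeq-style accessions, and 27593 probes kept the name in the file. The build is mm9 per the file headers, so only the printed promoters carry coordinates, those of GRCm38.p6. A probe was kept where it was well above background on 3 arrays of at least 1 of the 8 groups, and the probe with the highest mean stood for its gene, which left 24735 genes, 14366 with a RefSeq name.

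All 26 arrays were fitted as 8 group means with limma 3.58.1 in R 4.3.3 (lmFit and eBayes, two-sided), which pools the spread over groups, and Benjamini-Hochberg adjusted p under 0.05 was the threshold. Data were simulated with each gene's mean over all 26 arrays and its residual spread in the fit of 8 groups. The noise was independent, normal and equal in all groups, without shared slide or day effects, so the real arrays may do worse. There, 0%, 28.4% and 78.8% of genes changed by 1, 2 and 4 on the log2 scale were called, and 4 of 24535 unchanged genes. Tables were made with Python 3.11.15, pandas 2.3.3 and matplotlib 3.10.9. Each sample is a pool of mice, and p-values measure the spread between pools, taken over all 8 groups together and not over the 2 compared groups alone.

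Genes named are those past the threshold, the 15 of smallest p in each direction without overlap, Tlr2, Tlr4 and Cx3cr1, and up to 4 members of smallest p in each list, of which some are not reported here. The members and lists were chosen with earlier results of these data known. Samples with the same replicate number did not deviate together as a rule, so the numbers were not used as pairs. Their correlations were 0.222, 0.015 and 0.024, against -0.203 to 0.215 for unlike numbers. The highest, 0.222, was that of the replicate 1 samples, which shared a slide and a scan day. The alternatives covered background correction, normalization, filters, probes of a gene, the arrays fitted, array weights, slide, scan day, replicate number and leaving out arrays. The files used here hold no column of mean signal, so the background alternative (normexp, offset 50) used the median signal, and this and the comparison with the mean of the other 3 genotype differences were added after seeing the data.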

Additional observations from a re-analysis of the deposited data

Results flagged for a closer look

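Npm2 is given here because its genotype difference in naive NAc passed a test against that elsewhere, in 1 of the 3 tests made. The naive NAc difference minus the mean of the other 3 genotype differences was 4.08 ± 0.61 on the log2 scale (limma adjusted p = 0.0372), in a comparison added after its values were seen. All 3 TLR-DKO arrays of naive NAc read it well above background and lay above all 3 WT arrays. The single tests against naive mPFC (3.96, limma adjusted p = 0.484) and against R-SDS NAc (4.12, limma adjusted p = 0.387) did not pass. The call in the added comparison held in 7 of 19 alternatives. It was lost with slide, scan day or replicate number as a block (limma adjusted p of 0.0541, 0.0600 and 0.430) and without any of 5 of the 6 naive NAc arrays (0.123 to 0.320).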

How the results depend on the processing

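Over 24 alternatives, the 62 genes followed individually kept the sign of their naive NAc difference in 1464 of 1467 values. Much of this was fixed in advance. For 29 of these genes the choice required groups without overlap, so leaving out arrays could not turn their sign. Alternatives that change only how the spread is estimated leave every difference as it was. The exceptions were Tlr4, at 0.42 on the slide with replicates 2 and 3 alone and at 0.21 without TLR-DKO replicate 1 (-0.53 to 0.21 over the arrays left out), and Cx3cr1, at -0.04 on the slide with replicate 1 alone, for which the cause was not tested. The number of genes past the threshold in naive NAc was 2 to 4 when single arrays were left out and 1 among probes above background on 90% of arrays, a filter that removes Tlr2 and Npm2. It was 0 with only the 6 naive NAc arrays (limma, 916 at an unadjusted p under 0.05) and 0 on either slide alone (2559 and 1231), where fewer arrays set the spread. Tlr2 was then at -5.83, -5.82 and -5.84 without passing (limma adjusted p of 0.0593, 0.294 and 0.416). Without single arrays it was at -6.07 to -5.68. With replicate number as a block, 2 genes passed in naive NAc, Tlr2 and NAP060823-1, while Npm2 at 3.89 did not (limma adjusted p = 0.101); the samples are not paired by these numbers.

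The tests against naive mPFC and against R-SDS NAc gave 0 to 1 genes without single arrays, in both cases Npm2 without TLR-DKO replicate 2, and the first gave 1, Zbtb5, after normexp. The count in naive mPFC was 2 without single naive NAc arrays. In R-SDS NAc it was 2 without single arrays, 1 with the 90% filter and 0 on either slide alone. The mean of the other 3 differences gave 3 to 6 genes without single arrays, 2 with the 90% filter and 12 with array weights. The comparison of naive NAc with that mean gave 0 to 1 without single arrays. It gave 0 after normexp, without a filter on dim probes, with the 90% filter, with a trended robust variance, with slide, scan day or replicate number as a block, and without 2 outlying arrays (TLR-DKO mPFC naive replicate 1 and WT mPFC R-SDS replicate 3), and Npm2 was at 1.90 to 4.92 throughout. List medians kept their sign in 767 of 840 values. Those of Toll-like receptors, glucocorticoid receptor targets and cell cycle genes did so in all 24 alternatives. So did those of complement and phagocytosis, disease-associated microglia, oxidative phosphorylation, purinergic and transmitter receptors, neuron markers and genes flanking Tlr4. Alternatives that change only how the spread is estimated cannot move a median. Array median centring moved the median of all genes from -0.06 to -0.01. With 3 arrays a side precision is low, and no difference of 1 on the log2 scale was called in the simulated data.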
